A study of Mus musculus with 8 samples.

Results

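Stem cell genes, which mark blood stem cells or their dormant state, were followed through the marrow of mice with leukemia: Cd34, Ly6a, Slamf1, Esam, Angpt1, Tek, Procr, Eng, Hlf and Mecom. They were taken from the table by gene symbol, 10 of 23997 genes, and all 10 were present. RNA had been sequenced from 8 marrow libraries of C57BL/6 recipients in 3 groups. The AE+Meis2 marrow (n = 3, median latency 171 days) was transduced with AML1-ETO, the fusion protein of the t(8;21) translocation, together with the homeobox gene Meis2. The AE9a+Meis2 marrow (n = 3, median latency 102 days) carried Meis2 with AML1-ETO9a, a shorter splice form of the fusion. The AE9a marrow (n = 2, median latency 138 days) carried AML1-ETO9a alone. What all groups share is donor marrow taken 4 days after 5-fluorouracil, culture with IL3, IL6 and SCF, transplantation 48 hours after transduction into lethally irradiated mice, and RNA taken once leukemia had killed the recipient. Marrow without a fusion gene was not analysed here, the labels record no sort for leukemic cells, and the host cells left after irradiation are not described. No label ties a library to a donor, transduction or run, so each p-value rests on library-to-library spread that may be partly technical.

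In mouse marrow, blood stem cells are rare and mostly dormant. They are recognised by surface proteins (Sca-1 encoded by Ly6a, CD150 encoded by Slamf1, EPCR encoded by Procr, endoglin, ESAM), while CD34 appears on the cells as they leave the long-term compartment. The receptor TIE2, encoded by Tek, and its ligand angiopoietin-1 are known for holding stem cells at rest in the niche, and the transcription factors HLF and MECOM (EVI1) for maintaining them. Cd34, Tek, Eng, Esam and Procr are also expressed by endothelium. In bulk marrow, fewer cells of a type and less RNA per cell cannot be told apart.

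The fusion keeps the DNA-binding Runt domain of RUNX1, whose binding sequence is TGTGGT or TGCGGT, so the RefSeq promoters of the genes (GRCm38.p6) were read for it. Promoters were at hand for 7 of the 10 genes, 8 in all because Mecom has a pair. Within the 250 bases upstream of each start, neither RUNX sequence was found on either strand in any of the 8, against 18.6% of all 32851 promoters with at least one (14.0% for TGTGGT, 5.10% for TGCGGT). The GATA sequence AGATAA was also found in none, against 9.99% of all promoters. The ETS sequence AGGAAG (29.5% of all) was found in Cd34, Slamf1 and Eng. The interferon-stimulated response element, searched as GAAA, any 2 bases, then GAAA again (2.98% of all), was found only in the more upstream Mecom promoter. No match says only that these letters are absent from this window. For Tek, Procr and the more downstream Mecom promoter, the window lies partly or wholly inside the gene's RefSeq span. The promoters of Hlf and Eng, which lie outside it, are shown because AE+Meis2 and AE9a libraries overlapped for Eng but not for Hlf. The Hlf gap was small, 2.01 against 2.08 FPKM, and neither gene passed the test below. The pair is therefore no contrast of a changed and an unchanged gene. Capitals mark AGGAAG or its reverse complement. These promoters lie on chromosome 11 (Hlf, chr11:90390918-90391167, minus strand) and chromosome 2 (Eng, chr2:32646345-32646594, plus strand).
Hlf: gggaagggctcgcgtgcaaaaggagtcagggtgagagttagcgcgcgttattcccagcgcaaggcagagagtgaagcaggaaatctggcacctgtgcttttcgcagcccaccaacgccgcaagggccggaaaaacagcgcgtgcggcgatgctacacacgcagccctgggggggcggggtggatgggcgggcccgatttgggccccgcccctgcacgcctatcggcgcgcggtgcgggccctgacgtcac
Eng: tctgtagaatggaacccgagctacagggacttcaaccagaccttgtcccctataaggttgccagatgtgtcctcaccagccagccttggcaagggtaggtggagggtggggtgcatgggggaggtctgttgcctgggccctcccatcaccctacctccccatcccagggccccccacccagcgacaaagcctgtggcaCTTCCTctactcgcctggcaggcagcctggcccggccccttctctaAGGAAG
The Eng window holds the ETS sequence at 2 places, while the Hlf window holds none of the sequences searched. GC content was 67.2% for Hlf and 62.4% for Eng.

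Several libraries stood apart before any stem cell gene was considered. Runx1t1, which supplies the ETO part of the fusion, had 21.6, 223 and 218 FPKM (fragments scaled by transcript length and library size) in AE+Meis2 libraries 1, 2 and 3, against 10.3 to 18.0 FPKM in AE9a+Meis2 and 23.4 to 26.8 FPKM in AE9a. Meis2 had 13.1, 38.2 and 81.5 FPKM in AE+Meis2, 604 to 1277 FPKM in AE9a+Meis2 and 6.99 to 13.2 FPKM in AE9a. The library labelled AE+Meis2 replicate 1 thus lay with the AE9a libraries for Meis2 and far below its own group for Runx1t1, which goes against its label. In AE9a+Meis2 replicate 3 and AE9a replicate 1, 84.2% and 72.1% of 1536 genes that marrow does not normally use (olfactory and vomeronasal receptors, keratin-associated proteins, beta-defensins) were above 0, against 3.32% to 6.58% elsewhere. Their mean level in those libraries was 0.461 and 0.597 FPKM, against at most 0.0459 FPKM elsewhere. Absolute depth is unknown. The pan-leukocyte gene Ptprc was read in every library, at 39.4 to 298 FPKM.

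None of the stem cell genes passed the test in any comparison. Genes reaching 1 FPKM in at least 2 libraries were tested with limma on log2(FPKM + 1), a scale that understates the change of low genes, with Benjamini-Hochberg adjustment over all 12565 genes. This kept 9 of the 10. Mecom reached 1 FPKM in 1 library only, and Procr passed through 2 AE+Meis2 libraries, in which it was highest. Angpt1 and Esam reached 1 FPKM in the AE+Meis2 libraries and AE9a replicate 2, and in no AE9a+Meis2 library. They thus entered through the groups where they were high, so their comparisons with AE9a+Meis2 lean on the filter. Between AE9a+Meis2 and AE9a, 0 of 9 had an adjusted p under 0.05 (2 had an unadjusted p under 0.05), where 6 of all tested genes, 0.0478%, did. Between AE+Meis2 and AE9a+Meis2 it was 0 of 9 (2 unadjusted), with 5 genes or 0.0398% of all. Between AE+Meis2 and AE9a it was 0 of 9 (1 unadjusted), with 4 genes or 0.0318% of all. The comparisons share libraries, so they are not independent of each other.

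The direction of the estimates differed between comparisons. In AE9a+Meis2 against AE9a, 3 of the 9 estimates were above 0 and 6 below, with a median log2 difference of -0.51 beside -0.0011 over all tested genes. In AE+Meis2 against AE9a+Meis2, 8 were above 0 and 1 below, with a median of 0.56 beside 0.043. This count leaned on the library labelled AE+Meis2 replicate 1. Without it, Ly6a (-0.38) and Tek (-0.26) were also below 0, and Procr was not tested. Procr, which entered through AE+Meis2 alone, is counted above 0 in each comparison. Angpt1 and Esam, which entered without any AE9a+Meis2 library, are counted below 0 in AE9a+Meis2 against AE9a. Both are counted above 0 in AE+Meis2 against AE9a+Meis2. In AE+Meis2 against AE9a, 7 were above 0 and 2 below, with a median of 0.73 beside 0.055. Some lists of other cell types leaned the same way in the first 2 of these comparisons. Of 10 tested macrophage markers, 8 were below 0 in AE9a+Meis2 against AE9a (median -1.48) and 8 above 0 in AE+Meis2 against AE9a+Meis2 (median 1.39). Of 9 tested megakaryocyte and platelet markers, 7 were below 0 in the first comparison (median -0.41) and 9 above 0 in the second (median 0.62). Of 6 tested stroma markers, 5 were below (median -0.66) and 6 above (median 1.01). Not all lists did so. Of 5 tested endothelium markers, 3 were above 0 in the first comparison (median 0.042) and 3 in the second (median 0.027). Of 10 tested T and NK cell markers, 9 were above 0 in the first and 9 in the second. None of these markers passed, and their part in the stem cell genes was not tested. The groups were free of overlap for few stem cell genes. AE9a+Meis2 libraries were all above AE9a for 1 gene (Ly6a), or 11.1% of the 9 against 13.1% of all tested genes, and all below for 3 (Tek, Angpt1, Esam), 33.3% against 10.7%. AE+Meis2 libraries were all above AE9a+Meis2 for 2 genes (Angpt1, Esam), 22.2% against 7.00%, and all below for 0, against 6.49%. Angpt1 and Esam passed the filter without any AE9a+Meis2 library, so the 33.3% and the 22.2% that count them lean on the filter. No excess over all genes is read from these shares. They were all above AE9a for 1 gene (Ly6a), 11.1% against 9.96%, and all below for 2 (Tek, Hlf), 22.2% against 8.66%. Without the library labelled AE+Meis2 replicate 1, Eng joined Angpt1 and Esam above AE9a+Meis2, making 3 (13.8% of all genes then did so), and Angpt1 joined Ly6a above AE9a, making 2 (17.8% of all).

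**Figure D1:**
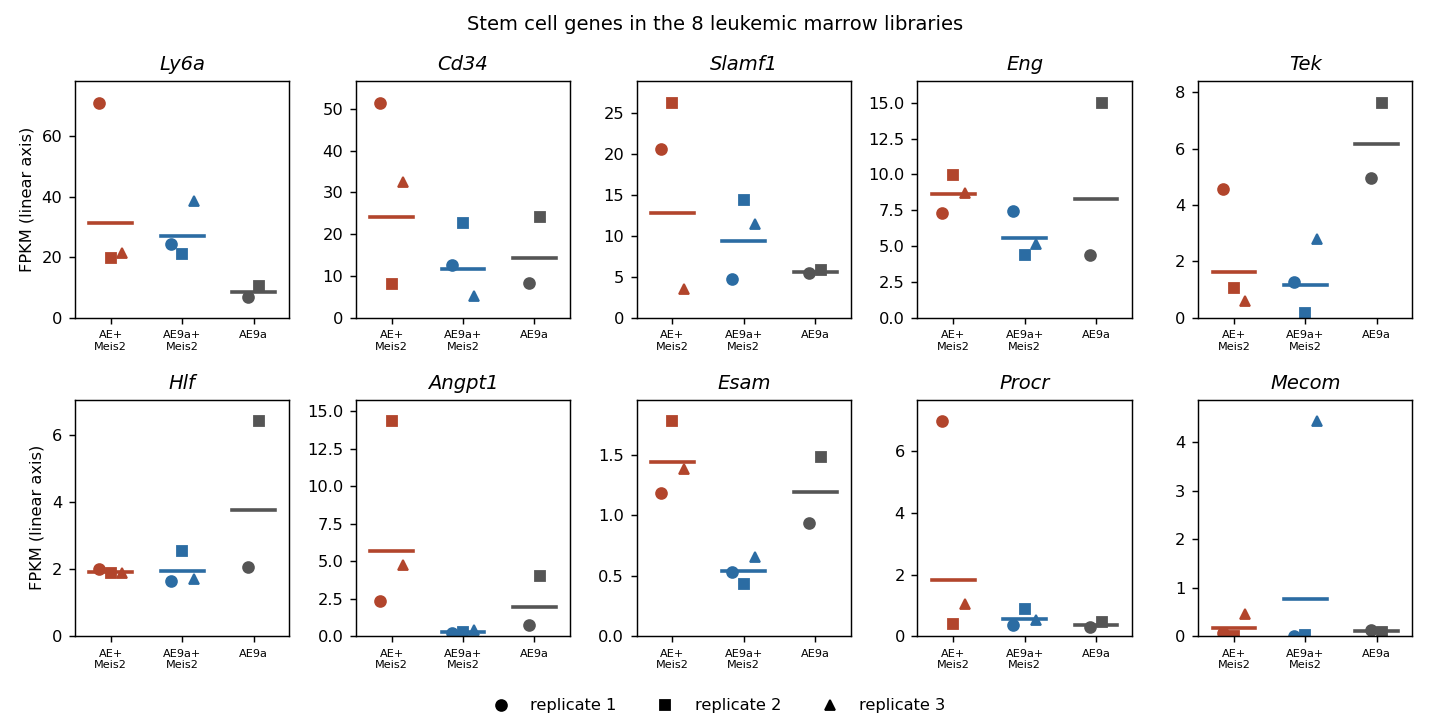
FPKM of each stem cell gene (linear axes, one scale per gene) in the AE+Meis2, AE9a+Meis2 and AE9a libraries. Points are libraries, shaped by replicate number, and bars mark the group mean taken on the log2(FPKM + 1) scale. Ly6a was lowest in both AE9a libraries, Tek highest in both, and Angpt1 was under 0.41 FPKM in each AE9a+Meis2 library.

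**Figure D2:**
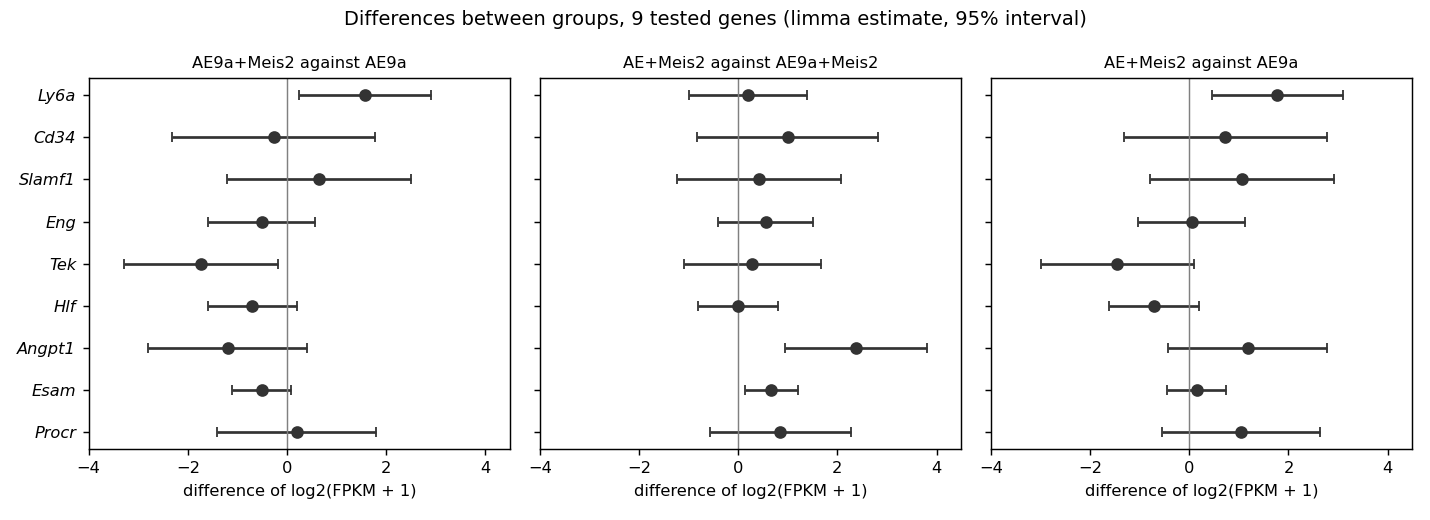
Difference of log2(FPKM + 1) between groups for the 9 tested genes, with the limma estimate as a point and its 95% interval, unadjusted for the number of genes, as a bar. The intervals leave out 0 for Ly6a and Tek in AE9a+Meis2 against AE9a, for Angpt1 and Esam in AE+Meis2 against AE9a+Meis2, and for Ly6a in AE+Meis2 against AE9a. Angpt1 and Esam reached 1 FPKM in no AE9a+Meis2 library and passed the filter through the other groups.

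FPKM divides by transcript length, so levels can be set beside each other. By their median over the 8 libraries the genes ran from Ly6a (21.4 FPKM) and Cd34 (17.7) through Slamf1 (8.63), Eng (7.40), Tek (2.03), Hlf (1.94), Angpt1 (1.54) and Esam (1.06) to Procr (0.498) and Mecom (0.0790). Neighbours in this order overlapped in their ranges over libraries. Ly6a was among the 2 most abundant of the 10 in 7 libraries and Cd34 in 6, and Mecom was the lowest in 7. Which of Ly6a and Cd34 came first varied, Ly6a being higher in 4 of the 8 libraries. The order did not hold within AE9a, where the mean of Cd34 (16.1 FPKM) and of Eng (9.71) was above that of Ly6a (8.61), and Tek (6.29) was above Slamf1 (5.63).

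Among the surface markers, Ly6a had the same pattern against AE9a in both Meis2 groups. It lies on chromosome 15 (74994877 to 74998031, minus strand) and encodes Sca-1, the GPI-anchored antigen by which mouse stem cells are sorted. Ly6a had 71.2, 19.8 and 21.5 FPKM in AE+Meis2, 24.2, 21.2 and 38.5 FPKM in AE9a+Meis2, and 6.76 and 10.5 FPKM in AE9a. Every library of the Meis2 groups was above both AE9a libraries, and the Meis2 groups overlapped each other. The highest value came from the library labelled AE+Meis2 replicate 1, whose own Meis2 level of 13.1 FPKM lay with the AE9a libraries. The log2 difference was 1.58 ± 0.56 (SE; 95% interval 0.25 to 2.90, adjusted p = 1) for AE9a+Meis2 against AE9a. It was 1.78 ± 0.56 (0.45 to 3.10, adjusted p = 0.681) for AE+Meis2 against AE9a, and 1.20 ± 0.35 (adjusted p = 0.390) without the library labelled AE+Meis2 replicate 1. Against AE9a+Meis2, AE+Meis2 differed by 0.20 ± 0.51 (-0.98 to 1.39), and by -0.38 ± 0.32 without that library.

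Ly6a is an interferon-responsive gene in the mouse, and the interferon list was, like Ly6a, lowest in AE9a. Its 20 genes summed to 676 to 1312 FPKM in AE+Meis2, 590 to 1256 FPKM in AE9a+Meis2 and 169 to 252 FPKM in AE9a. All 20 estimates were above 0 in AE9a+Meis2 against AE9a and in AE+Meis2 against AE9a, with an unadjusted p under 0.05 for 11 and 18 of them and an adjusted p under 0.05 for none. In AE+Meis2 against AE9a+Meis2, 18 were above 0 and 2 below (median 0.90), where Ly6a was at 0.20. The part of this in the Ly6a values was not tested. Ly6a sits among close relatives, and no source used here says how reads shared between them were divided, so its level is uncertain. Of 14 neighbours in this family, 13 were in the table and 7 were tested; 0 passed in any comparison. Ly6c1 and Ly6i had the smallest p-values in the comparisons with AE9a+Meis2. Ly6c1 had 50.4, 37.0 and 60.4 FPKM in AE+Meis2, 401, 89.3 and 107 FPKM in AE9a+Meis2, and 39.1 and 59.8 FPKM in AE9a. AE9a+Meis2 stood above both other groups, with a log2 difference of 1.67 ± 0.62 against AE9a (adjusted p = 1), while AE+Meis2 against AE9a+Meis2 gave -1.68 ± 0.56 (adjusted p = 0.625). Ly6i had 3.97, 3.61 and 18.6 FPKM in AE+Meis2, 25.6, 14.6 and 31.6 FPKM in AE9a+Meis2, and 5.53 and 7.22 FPKM in AE9a. AE+Meis2 overlapped AE9a for both genes, which it did not for Ly6a.

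Cd34 varied widely within each group, with a standard deviation of 0.97 to 1.31 on the log2 scale. It lies on chromosome 1 (194938821 to 194961292, plus strand) and encodes a sialomucin of early blood cells, mast cells and vessels. Cd34 had 51.5, 8.09 and 32.5 FPKM in AE+Meis2, 12.6, 22.8 and 5.21 FPKM in AE9a+Meis2, and 8.22 and 24.1 FPKM in AE9a. All groups overlapped, and no difference exceeded 1.00 ± 0.78 on the log2 scale (AE+Meis2 against AE9a+Meis2, adjusted p = 0.813). That value was 0.47 ± 0.82 without the library labelled AE+Meis2 replicate 1, 0.49 ± 0.83 without AE9a+Meis2 replicate 3 and 1.74 ± 0.66 (adjusted p = 0.706) without AE+Meis2 replicate 2. The highest value came from the library labelled AE+Meis2 replicate 1. That library also had the highest mast cell and basophil sum, 4421 FPKM against 815 to 2597 FPKM in the others, and the part of this in Cd34 was not tested. Among 12 relatives and ligands of CD34 and ESAM in adhesion, 5 were tested and 0 passed. Podxl, the closest relative of Cd34, had 55.3, 25.2 and 5.06 FPKM in AE+Meis2, 15.4, 39.7 and 59.2 FPKM in AE9a+Meis2, and 25.0 and 103 FPKM in AE9a.

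Slamf1 also overlapped in all comparisons. It lies on chromosome 1 (171767131 to 171801184, plus strand) and encodes CD150, the SLAM receptor that is kept on long-term stem cells while its relative CD48 is absent from them. Slamf1 had 20.6, 26.3 and 3.46 FPKM in AE+Meis2, 4.74, 14.4 and 11.4 FPKM in AE9a+Meis2, and 5.42 and 5.83 FPKM in AE9a. The AE9a libraries were close to each other, and AE+Meis2 held both the highest and the lowest value. AE+Meis2 replicate 3, the lowest, also had the highest sum of neutrophil genes, 171032 FPKM against 1778 to 34802 FPKM in the others; its part was not tested. The log2 difference of AE+Meis2 against AE9a was 1.06 ± 0.79 (adjusted p = 0.95). It was 1.88 ± 0.47 (adjusted p = 0.486) without AE+Meis2 replicate 3 and 0.57 ± 0.79 without AE+Meis2 replicate 2. Cd48 was above Slamf1 in all 8 libraries, by 5.03- to 24.0-fold. It had 104, 221 and 83.0 FPKM in AE+Meis2, 63.9, 92.6 and 84.3 FPKM in AE9a+Meis2, and 44.8 and 76.1 FPKM in AE9a, and AE+Meis2 against AE9a gave 1.07 ± 0.44 (adjusted p = 0.828). Of the 11 SLAM relatives and adaptors, 10 were tested and 0 passed. Slamf9, an orphan member of the family, had 2.75, 1.64 and 5.74 FPKM in AE+Meis2, 1.16, 0.777 and 2.06 FPKM in AE9a+Meis2, and 3.89 and 4.85 FPKM in AE9a. Its AE9a+Meis2 values were all below AE9a, with a difference of -1.23 ± 0.43 (adjusted p = 1).

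Esam was low in AE9a+Meis2. The gene (chromosome 9, 37528089 to 37538319, plus strand) encodes an adhesion molecule of stem cells, platelets and endothelium. Esam had 1.19, 1.78 and 1.38 FPKM in AE+Meis2, 0.529, 0.432 and 0.657 FPKM in AE9a+Meis2, and 0.933 and 1.48 FPKM in AE9a. The AE9a+Meis2 libraries were below both other groups, which overlapped each other. None of the AE9a+Meis2 libraries reached 1 FPKM, so Esam passed the filter through the groups where it was high. Its differences from AE9a+Meis2 are given as values and are no independent support. AE+Meis2 exceeded AE9a+Meis2 by 0.67 ± 0.23 on the log2 scale (95% interval 0.13 to 1.20, adjusted p = 0.626), and AE9a+Meis2 differed from AE9a by -0.51 ± 0.25 (-1.11 to 0.083, adjusted p = 1).

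Angpt1 had the smallest p of the 9 genes. The gene (chromosome 15, 42424667 to 42676977, minus strand) encodes the secreted ligand that activates TIE2. Angpt1 had 2.36, 14.4 and 4.78 FPKM in AE+Meis2, 0.210, 0.264 and 0.401 FPKM in AE9a+Meis2, and 0.728 and 4.04 FPKM in AE9a. The AE9a+Meis2 libraries were the 3 lowest of the 8, and AE9a overlapped AE+Meis2. No AE9a+Meis2 library reached 1 FPKM, so Angpt1 passed the filter through the groups where it was high. Its differences from AE9a+Meis2 are given as values and are no independent support. The mean of AE+Meis2 was 7.16 ± 6.34 FPKM and that of AE9a+Meis2 0.292 ± 0.099 FPKM (SD, n = 3 each), a log2 difference of 2.37 ± 0.61 (95% interval 0.94 to 3.80). Its adjusted p was 0.469, and 0.277 without the library labelled AE+Meis2 replicate 1. AE9a+Meis2 against AE9a gave -1.19 ± 0.68 (adjusted p = 1), with -0.42 ± 0.78 without AE9a replicate 2 and -1.97 ± 0.78 without AE9a replicate 1.

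Platelet and stromal genes were read beside Angpt1. The 11 megakaryocyte and platelet markers summed to 142, 445 and 25.9 FPKM in AE+Meis2, 31.0, 45.7 and 52.9 FPKM in AE9a+Meis2, and 51.5 and 66.1 FPKM in AE9a. These sums overlapped between all groups. Angpt1 and the sum were both highest in AE+Meis2 replicate 2, and in AE+Meis2 replicate 3, where the sum was the lowest of the 8, Angpt1 was at 4.78 FPKM. The 13 mesenchymal stroma markers summed to 28.3, 89.1 and 47.9 FPKM in AE+Meis2, 27.4, 12.5 and 13.5 FPKM in AE9a+Meis2, and 30.4 and 40.6 FPKM in AE9a, so AE9a+Meis2 was lowest there too. The osteoblast marker Bglap was at 0 in AE+Meis2 replicates 2 and 3. The part of either list in the Angpt1 values was not tested.

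Tek, the receptor of angiopoietin-1, was highest in the AE9a libraries. Tek (chromosome 4, 94739086 to 94874976, plus strand) had 4.56, 1.07 and 0.579 FPKM in AE+Meis2, 1.25, 0.170 and 2.80 FPKM in AE9a+Meis2, and 4.95 and 7.64 FPKM in AE9a. Both AE9a libraries were above all 6 others, and the nearest was the library labelled AE+Meis2 replicate 1. The log2 difference was -1.73 ± 0.66 for AE9a+Meis2 against AE9a (95% interval -3.28 to -0.19, adjusted p = 1) and -1.45 ± 0.66 for AE+Meis2 against AE9a (-3.0 to 0.099, adjusted p = 0.854). Without that library the second became -1.99 ± 0.57 (adjusted p = 0.382). AE+Meis2 against AE9a+Meis2 gave 0.29 ± 0.59, and -0.26 ± 0.52 without it. The ligand Angpt1 was above Tek in 3 of the 8 libraries.

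Endothelial markers were checked beside Tek. The 16 genes summed to 35.3 to 56.3 FPKM in AE+Meis2, 30.6 to 50.9 FPKM in AE9a+Meis2, and 56.1 and 103.9 FPKM in AE9a. Most of the AE9a sum came from Egfl7, at 42.0 and 72.9 FPKM, against 14.7 to 27.5 FPKM in AE+Meis2 and 11.3 to 30.2 FPKM in AE9a+Meis2; stem and progenitor cells also express this gene. Other members, picked after their values were seen, varied. Pecam1, which leukocytes also express, had 5.72 to 24.4 FPKM over the 8 libraries, and Vwf at 7.58 and Emcn at 2.07 FPKM were highest in AE+Meis2 replicate 2. Plvap, of fenestrated vessels, had 1.20, 0.116 and 0.814 FPKM in AE+Meis2, 1.32, 4.40 and 4.20 FPKM in AE9a+Meis2, and 2.34 and 3.35 FPKM in AE9a. Like Tek, Plvap was below both AE9a libraries in every AE+Meis2 library, at a log2 difference of -1.21 ± 0.47 (adjusted p = 0.783). The endothelial cadherin Cdh5 was at most 0.872 FPKM in any library, the receptor Kdr at most 0.839 and the tight-junction gene Cldn5 at most 0.202; the part of endothelium in the Tek values was not tested. Cldn5 was at 0 in the library labelled AE+Meis2 replicate 1 and Mmrn2 at 0 in AE9a replicate 2. Of 6 other genes of the pathway, 3 were tested and 0 passed. Tie1, the orphan receptor that pairs with TIE2, had 0.375, 1.1 and 2.5 FPKM in AE+Meis2, 0.137, 0.0214 and 0.421 FPKM in AE9a+Meis2, and 0.460 and 1.15 FPKM in AE9a. The AE9a+Meis2 values were all below AE9a, at -0.59 ± 0.43 (adjusted p = 1). That gap was small, with 0.421 FPKM in AE9a+Meis2 replicate 3 against 0.460 FPKM in AE9a replicate 1. These libraries read silent genes at a mean of 0.461 and 0.597 FPKM, so no parallel with Tek is drawn. Tie1 also reached 1 FPKM in no AE9a+Meis2 library and passed the filter through the other groups. AE+Meis2 overlapped AE9a and gave 0.87 ± 0.38 against AE9a+Meis2 (adjusted p = 0.713). Angpt2, the partly antagonistic ligand, was not tested, at 0.248 to 1.20 FPKM.

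Procr rested on a single library. On chromosome 2 (155751125 to 155755478, plus strand), it encodes the receptor of protein C. Procr had 6.99, 0.401 and 1.04 FPKM in AE+Meis2, 0.361, 0.877 and 0.527 FPKM in AE9a+Meis2, and 0.294 and 0.468 FPKM in AE9a. The library labelled AE+Meis2 replicate 1 was 6.74-fold above the next, and the groups overlapped. Procr passed the filter through AE+Meis2 alone, the group where it was high, so no test of it is given here. It stays among the 9 genes counted above, and without that library it no longer passed the filter. That library also had the highest macrophage sum, 464 FPKM against 64.9 to 254 FPKM in the others; its part was not tested. Of 8 other genes of the protein C pathway, 5 were tested and 0 passed. The thrombin-binding cofactor Thbd had 1.77, 0.968 and 5.85 FPKM in AE+Meis2, 9.25, 4.03 and 4.60 FPKM in AE9a+Meis2, and 3.22 and 3.39 FPKM in AE9a. F2rl2, a protease-activated receptor, had 11.4, 29.0 and 0.931 FPKM in AE+Meis2, 1.47, 3.69 and 3.75 FPKM in AE9a+Meis2, and 3.83 and 6.23 FPKM in AE9a. In neither gene did the library labelled AE+Meis2 replicate 1 hold the highest value.

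Eng overlapped between all groups. It lies on chromosome 2 (32646595 to 32682669, plus strand) and encodes endoglin, a co-receptor of the TGF-beta and BMP family. Eng had 7.34, 9.98 and 8.70 FPKM in AE+Meis2, 7.47, 4.37 and 5.14 FPKM in AE9a+Meis2, and 4.40 and 15.0 FPKM in AE9a. The AE9a pair spanned the whole range of AE+Meis2. AE+Meis2 against AE9a gave 0.047 ± 0.46 (95% interval -1.03 to 1.12), which became -0.74 ± 0.39 (adjusted p = 1) with AE9a replicate 1 and AE9a+Meis2 replicate 3 left out. AE+Meis2 against AE9a+Meis2 gave 0.56 ± 0.41 (adjusted p = 0.80).

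Of 21 genes of the endoglin pathway, 18 were tested and 0 passed, with 10 above and 8 below 0 in AE+Meis2 against AE9a+Meis2. Tgfbr3, the other large co-receptor, had 3.77, 1.15 and 2.28 FPKM in AE+Meis2, 0.847, 0.359 and 0.659 FPKM in AE9a+Meis2, and 5.69 and 1.82 FPKM in AE9a. Tgfbr3 thus passed the filter through the other groups, with no AE9a+Meis2 library at 1 FPKM. Its AE9a+Meis2 values were below all others, with -1.43 ± 0.47 against AE9a (adjusted p = 1) and 1.00 ± 0.42 for AE+Meis2 against AE9a+Meis2 (adjusted p = 0.694). The signalling receptor Tgfbr2 had 21.8, 48.8 and 29.8 FPKM in AE+Meis2, 16.5, 16.6 and 18.2 FPKM in AE9a+Meis2, and 22.2 and 24.8 FPKM in AE9a. AE9a+Meis2 was again lowest, and AE+Meis2 against AE9a+Meis2 gave 0.86 ± 0.29 (adjusted p = 0.625). Acvrl1, the type I receptor that endoglin assists in vessels, reached 351 FPKM in AE+Meis2 replicate 3 against at most 14.6 FPKM in the others; it was named after its values were seen.

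Hlf was level across the groups but for 1 library. Found on chromosome 11 (90336535 to 90390917, minus strand), it encodes a PAR bZIP transcription factor. Hlf had 2.01, 1.88 and 1.87 FPKM in AE+Meis2, 1.64, 2.53 and 1.71 FPKM in AE9a+Meis2, and 2.08 and 6.42 FPKM in AE9a. AE9a replicate 2 alone was above 3 FPKM. The AE+Meis2 libraries were all below both AE9a libraries, but the gap was small, with 2.01 FPKM in the highest AE+Meis2 library against 2.08 FPKM in AE9a replicate 1. AE+Meis2 against AE9a gave -0.71 ± 0.38 (95% interval -1.61 to 0.19, adjusted p = 0.942), and against AE9a+Meis2 -0.0083 ± 0.34. The difference from AE9a was -0.076 ± 0.33 without AE9a replicate 2 and -1.35 ± 0.32 (adjusted p = 0.669) without AE9a replicate 1. Tef, a relative that binds the same sites, was above Hlf in all 8 libraries, at 8.56 to 24.1 FPKM. Of 8 relatives of Hlf and Mecom, 7 were tested and 0 passed.

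Mecom was near 0 in 7 libraries and present in 1. It lies on chromosome 3 (29951296 to 30509759, minus strand), and its FPKM does not separate the long and short forms that start at its separate promoters. Mecom had 0.0714, 0 and 0.465 FPKM in AE+Meis2, 0.0113, 0.0186 and 4.43 FPKM in AE9a+Meis2, and 0.123 and 0.0866 FPKM in AE9a. AE9a+Meis2 replicate 3 was 9.54-fold above the next library. That library is one of the pair with reads over silent genes, where 4 of the 1536 silent genes (0.260%) were at or above the Mecom value. AE9a replicate 1, the other of the pair, had 0.123 FPKM. Mynn, the closest gene to Mecom read in every library, ran from 5.32 to 7.93 FPKM, with its lowest value in AE9a+Meis2 replicate 3. Some other neighbours, picked after their values were seen, were higher in that library and AE9a replicate 1 than elsewhere. Slc7a14 had 2.26 and 3.48 FPKM in these, and Cldn11 0.473 and 0.462 FPKM. Elsewhere they had at most 1.52 and 0.0510 FPKM. Lrrc34 did not follow, with 0.151 FPKM in AE9a+Meis2 replicate 3 and 0.159 FPKM in replicate 1.

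Prdm16, the closest relative of Mecom and likewise known from stem cell maintenance, was high in another library of the same group. It had 0.0105, 0.234 and 0.00959 FPKM in AE+Meis2, 0.0234, 6.10 and 0.537 FPKM in AE9a+Meis2, and 0.429 and 0.0313 FPKM in AE9a. AE9a+Meis2 replicate 2 was 11.4-fold above the next. Egfem1, which lies within 1 Mb of Mecom, had 5.77 FPKM in AE9a+Meis2 replicate 1 and at most 0.416 FPKM in any other library. Each AE9a+Meis2 library therefore held 1 of these genes alone; the grouping was made after the values were seen. Single-library genes were not rare. A rule of at least 4 FPKM and at least 5 times the next library was met by 1 to 103 genes per library (small RNAs left out), and by 34, 1 and 6 genes in AE9a+Meis2 replicates 1, 2 and 3. Prdm16 was thus the only such gene in AE9a+Meis2 replicate 2.

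**Figure D3:**
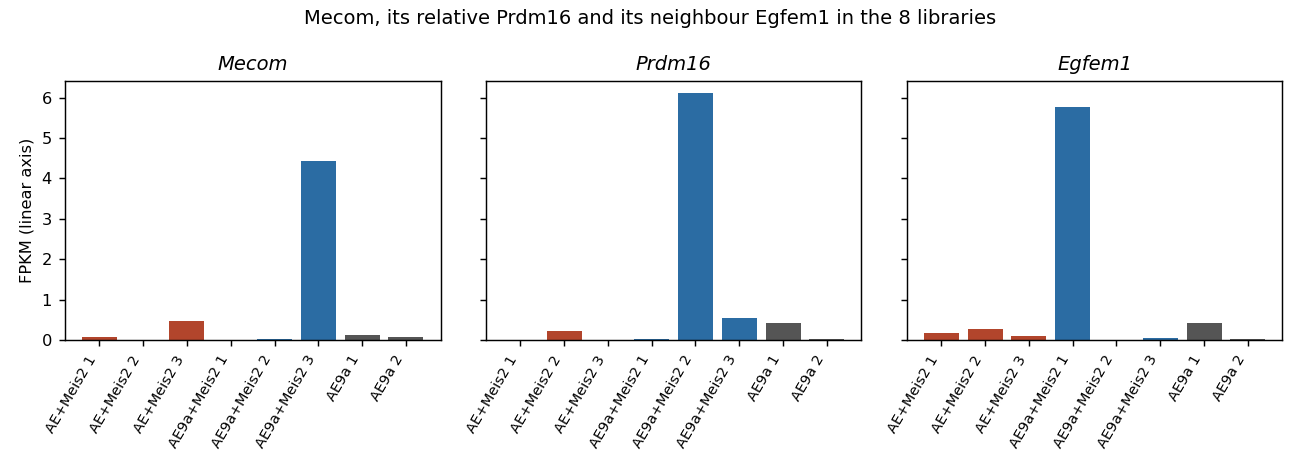
FPKM (linear axis, shared) of Mecom, Prdm16 and Egfem1 in the 8 libraries; each bar is 1 library, coloured by group. Each gene stands out in a different AE9a+Meis2 library, at 4.43 FPKM for Mecom (replicate 3), 6.10 for Prdm16 (replicate 2) and 5.77 for Egfem1 (replicate 1).

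Other stem and progenitor genes were read at widely different levels, and none of the 29 tested of 37 passed in any comparison. For AE9a+Meis2 against AE9a, 10 estimates were above 0 and 19 below (median -0.18). For AE+Meis2 against AE9a+Meis2, 21 were above and 8 below (median 0.28), and for AE+Meis2 against AE9a, 18 above and 11 below (median 0.069). The medians over all tested genes were -0.0011, 0.043 and 0.055 in the same comparisons. Meis1, the relative of the transduced Meis2, had 3.67, 1.61 and 1.93 FPKM in AE+Meis2, 0.0228, 0.0449 and 0.491 FPKM in AE9a+Meis2, and 0.537 and 0.903 FPKM in AE9a. The 3 groups did not overlap, AE9a+Meis2 being lowest, but its gap to AE9a was small. It lay between 0.491 FPKM in AE9a+Meis2 replicate 3 and 0.537 FPKM in AE9a replicate 1. These libraries read silent genes at a mean of 0.461 and 0.597 FPKM, so the order of AE9a+Meis2 and AE9a is uncertain. The share of all genes with 3 separate groups was not counted. Meis1 reached 1 FPKM in the AE+Meis2 libraries alone and so passed the filter through the group where it was high, and no test of it is given. Hoxb4, a homeobox gene that expands stem cells when forced, ran the other way, with 0.670, 0.224 and 1.68 FPKM in AE+Meis2, 5.94, 4.47 and 1.93 FPKM in AE9a+Meis2, and 1.09 and 0.999 FPKM in AE9a. AE9a+Meis2 was highest, at 1.23 ± 0.46 against AE9a (adjusted p = 1).

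Genes tied to dormancy and genes of the cell cycle were read as lists. Of 20 dormancy genes, 18 were tested and 0 passed, with 8 estimates above 0 and 10 below in AE9a+Meis2 against AE9a (median -0.020), 13 and 5 in AE+Meis2 against AE9a+Meis2 (median 0.20), and 13 and 5 in AE+Meis2 against AE9a (median 0.34). Cdkn1b, the cyclin-dependent kinase inhibitor p27, had 52.3, 66.2 and 59.3 FPKM in AE+Meis2, 46.7, 41.1 and 38.6 FPKM in AE9a+Meis2, and 44.8 and 47.8 FPKM in AE9a. AE+Meis2 was highest in every library, at 0.48 ± 0.16 against AE9a+Meis2 (adjusted p = 0.626). The early response gene Egr1, which holds stem cells at rest, had 59.3, 10.1 and 53.5 FPKM in AE+Meis2, 37.3, 18.8 and 38.0 FPKM in AE9a+Meis2, and 2.49 and 12.7 FPKM in AE9a. The AE+Meis2 range reached below the higher AE9a library, and AE+Meis2 against AE9a gave 2.26 ± 0.87 (adjusted p = 0.782). All 20 cell cycle genes were tested and 0 passed, with 7 above and 13 below 0 in AE9a+Meis2 against AE9a (median -0.088), 15 and 5 in AE+Meis2 against AE9a+Meis2 (median 0.12), and 12 and 8 in AE+Meis2 against AE9a (median 0.018). The proliferation marker Mki67 was at 81.5 to 90.5 FPKM in AE+Meis2, 54.3 to 90.3 FPKM in AE9a+Meis2, and 51.4 and 80.0 FPKM in AE9a.

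The marrow was a mixture in every library. Beside the sums already given, erythroid markers summed to 607 to 5490 FPKM in AE+Meis2, 1324 to 3221 FPKM in AE9a+Meis2, and 1538 and 2867 FPKM in AE9a. T and NK cell markers summed to 40.0 to 69.4, 17.0 to 94.4, and 26.7 and 39.5 FPKM in those groups, and B and plasma cell markers to 73.8 to 105, 99.7 to 153, and 84.0 and 143 FPKM. Mast cell and basophil markers summed to 1363 to 4421, 815 to 2088, and 1265 and 2597 FPKM. Macrophage markers summed to 464, 254 and 124 FPKM in AE+Meis2, 167, 64.9 and 94.2 FPKM in AE9a+Meis2, and 163 and 228 FPKM in AE9a. The part of any of these in the stem cell genes was not tested. Some markers stand in 2 lists, such as Tie1 (endothelium, angiopoietin pathway).

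**Figure D4:**
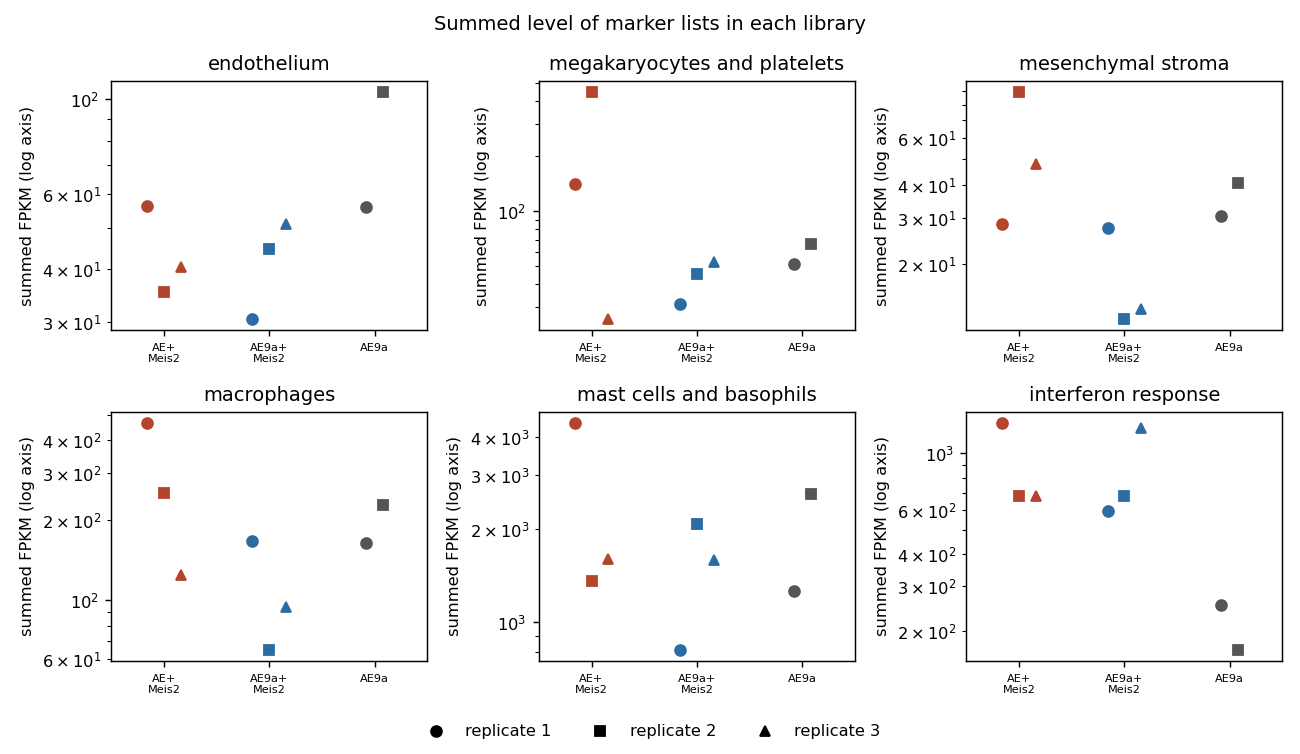
Summed FPKM (log axes) of 6 marker lists in each library, grouped as AE+Meis2, AE9a+Meis2 and AE9a and shaped by replicate number. The interferon response sum is lowest in both AE9a libraries (169 and 252 FPKM), and the megakaryocyte and platelet sum is highest in AE+Meis2 replicate 2 (445 FPKM).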

How the data were processed

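The authors deposited 1 table of FPKM values for 23997 genes in 8 libraries. The tools named in the submitters' processing notes are TopHat, Cufflinks and Cuffdiff, with the build mm10; no source used here gives versions, settings, annotation or strand handling. Cd34, Angpt1, Mecom and Eng overlap other annotated genes, whose reads may not be told apart. Sample titles gave the group and replicate number.

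Values were taken to log2(FPKM + 1). Genes at 1 FPKM or more in 2 libraries were tested with limma 3.58.1 in R 4.3.3, with 1 coefficient per group over all 8 libraries and empirical Bayes moderation along the intensity trend, and p-values were adjusted by Benjamini-Hochberg over 12565 genes. The procedure was run on simulated data with changes added to AE+Meis2 alone, so recovery of a change between AE9a+Meis2 and AE9a was not covered. The genes and lists were chosen with earlier results of these data known. All 10 stem cell genes are named; from each other list, genes came from the 2 smallest p-values per comparison, some of which are not reported here, and others were named after their values were seen. Gene spans are RefSeq GRCm38; promoters are RefSeq GRCm38.p6. Low values put relative depth between 12.2% and 100% of the deepest library, AE9a+Meis2 replicate 2, a rough estimate. Alternatives covered the pseudocount (0.1), the filter, scaling, the libraries fitted, a replicate block and each library left out.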

Additional observations from a re-analysis of the deposited data

How the results depend on the processing

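No stem cell gene passed the adjusted threshold of limma under any alternative. The lowest adjusted p over the alternatives was 0.351 between AE9a+Meis2 and AE9a, 0.277 between AE+Meis2 and AE9a+Meis2, and 0.382 between AE+Meis2 and AE9a. Of 396 recomputed differences of these genes, 376 kept their direction and 20 turned. Between AE+Meis2 and AE9a, Eng became -0.28 with small RNAs left out and the rest rescaled and -0.74 with AE9a+Meis2 replicate 3 and AE9a replicate 1 left out, and Esam became -0.051 and -0.027 under the same pair. Between AE+Meis2 and AE9a+Meis2, Ly6a became -0.046 without small RNAs and Hlf 0.16 under quantile scaling. The remaining turns came from leaving out 1 library. The AE9a+Meis2 minus AE9a difference then ran from -0.99 to 0.45 for Cd34 and -1.29 to 0.28 for Eng, each highest without AE9a replicate 2. The AE+Meis2 minus AE9a+Meis2 difference ran from -0.38 to 0.52 for Ly6a, -0.26 to 0.69 for Tek, -0.085 to 0.12 for Hlf and -0.072 to 1.23 for Slamf1. The AE+Meis2 minus AE9a difference ran from -0.74 to 0.83 for Eng and -0.027 to 0.33 for Esam. Of 894 recomputed values of other named genes, 7 turned. Cdkn1b became -0.025 without small RNAs (AE+Meis2 against AE9a). With 1 library left out, Selp ran from -1.95 to 0.13 (AE+Meis2 against AE9a+Meis2), and, all between AE+Meis2 and AE9a, Tie1 from -0.061 to 0.61, Itga5 from -0.70 to 0.20, Thbd from -0.88 to 0.019, F2rl2 from -0.27 to 1.71 and Ccnd2 from -1.36 to 0.11. The rescaling without small RNAs moved the median of all genes to -0.12 for AE9a+Meis2 minus AE9a, -0.19 for AE+Meis2 minus AE9a+Meis2 and -0.29 for AE+Meis2 minus AE9a. The causes were not tested.

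Over all genes, the 6 calls between AE9a+Meis2 and AE9a became 2 with a replicate block and 3 without both libraries that read silent genes, and 2 to 9 with 1 library left out. The 5 calls between AE+Meis2 and AE9a+Meis2 became 14 without small RNAs and stayed at 5 with the replicate block, and were 6 to 23 with 1 library left out. The 4 calls between AE+Meis2 and AE9a became 1 with no filter, 2 with the libraries of those groups only, and 1 to 10 with 1 library left out. They became 0 by limma without small RNAs (898 genes at an unadjusted p under 0.05) and 0 with the replicate block (688 genes). Whether the replicate numbers pair the libraries is not known. Deviations of same-numbered libraries correlated between -0.025 and 0.13, and those of other pairs between -0.101 and 0.083. With groups of 2 or 3 libraries, these values cannot decide it. The counts of stem cell genes without overlap were recomputed without libraries that stand apart, a choice made after the data were seen. Without both libraries that read silent genes, 6 of the 9 stem cell genes were lower in AE9a+Meis2 than in AE9a with no overlap (38.6% of all genes were, with 1 AE9a library left). Without the library labelled AE+Meis2 replicate 1, 2 were higher in AE+Meis2 than in AE9a (17.8% of all). Procr was not tested without AE+Meis2 replicate 1 or 3, nor Angpt1, Esam and Procr with AE9a+Meis2 and AE9a alone. Absolute depth is unknown, and Mecom, Procr and Esam lie near or under 1 FPKM, where log2(FPKM + 1) compresses differences.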
